A study of Homo sapiens with 8 samples.

Results

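The E2F transcription factors *E2F1* to *E2F8*, their dimerization partner DP1 (*TFDP1*) and B-MYB (*MYBL2*) were followed in A375 melanoma cells deprived of serum. These 10 genes were taken by name from the 58051 genes counted in each library. All 10 passed the filter on low counts that left 17671 genes to test. E2F proteins bind the promoters of genes needed for S phase, the typical members as dimers with a DP protein. E2F1, E2F2 and E2F3 mainly activate transcription and are held back by RB until cyclin-dependent kinases release them, whereas E2F4 and E2F5 mainly repress together with the pocket proteins of quiescent cells. E2F6 represses without pocket proteins, the atypical E2F7 and E2F8 repress without DP partners, and B-MYB joins the MuvB core to turn on genes of G2 and mitosis, its own gene being a known E2F target.

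RNA was measured in wild-type A375, an established human melanoma line, through 4 lines named WT1 to WT4 that were each grown from a single cell. Every line was kept for 12 h in DMEM either with 10% fetal bovine serum (serum) or with none (serum-free), which gave 8 libraries of ribosome-depleted RNA, 1 per line and condition. The study used the comparison to learn how melanoma cells respond when serum is withdrawn. Each line is a clone, so that p-values of fits that ignore the line measure the spread between these clones. Fits that take the line as a block, and tests between lines, use the spread left after line and condition. No line was sequenced more than once in a condition.

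The libraries held 29759279 to 67101005 counts on genes with serum and 37847737 to 73341551 without. Reads that did not align uniquely amounted to 22.7% in WT1 and 16.8% in WT2 with serum, against 5.73% to 10.1% in the other libraries. Among melanocyte lineage genes *MITF* was at 40.2 ± 3.89 CPM (counts scaled to library size) with serum (SD, n = 4), whereas *PMEL*, *MLANA*, *TYR*, *TYRP1* and *DCT* were each at 1.23 CPM or less on average and *SOX10* was listed at 0, a gene whose span overlaps *POLR2F*. Of 5 markers of undifferentiated or neural crest-like melanoma, *AXL* and *NES* were at 590 ± 83.0 and 297 ± 55.5 CPM with serum. *NGFR* at 93.2 ± 60.7 CPM and *EGFR* at 21.9 ± 13.4 CPM differed widely between lines, and *SOX9* was at 0.11 CPM. Summed within each list, the markers of fibroblasts, leukocytes and endothelium reached at most 9.49, 8.40 and 1.87 CPM in any library. Among epithelial and keratinocyte markers *KRT14* was at 17.2 ± 2.69 CPM with serum, and *EPCAM* and *CDH1* were under 0.17 CPM in all libraries.

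Promoters are shown as examples for *E2F1*, *E2F2*, *E2F3* and *MYBL2*, which hold E2F words, and *E2F4*, which holds none. E2F genes are known to be regulated by E2F proteins. *TFDP1*, which also holds such words, and *E2F6* and *E2F7*, which hold none, are not printed. RefSeq (GRCh38.p14) gave windows of 300 bases, from 250 before to 50 after the start, for 8 of the 10 genes, that is for all but *E2F5* and *E2F8*. Printed are the 120 bases just upstream of the start, 5′ to 3′ on the gene's own strand, with E2F words in capitals:
E2F1, chr20:33686386-33686505, minus strand: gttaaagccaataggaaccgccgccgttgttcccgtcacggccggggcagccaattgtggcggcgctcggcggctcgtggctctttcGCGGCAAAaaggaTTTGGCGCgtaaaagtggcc
E2F2, chr1:23531234-23531353, minus strand: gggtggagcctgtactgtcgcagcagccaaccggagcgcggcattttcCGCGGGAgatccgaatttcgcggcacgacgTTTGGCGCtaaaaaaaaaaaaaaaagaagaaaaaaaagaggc
E2F3, first start, chr6:20401759-20401878, plus strand: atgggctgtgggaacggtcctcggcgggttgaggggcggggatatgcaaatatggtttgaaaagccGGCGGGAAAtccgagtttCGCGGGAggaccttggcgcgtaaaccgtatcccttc
MYBL2, chr20:43666994-43667113, plus strand: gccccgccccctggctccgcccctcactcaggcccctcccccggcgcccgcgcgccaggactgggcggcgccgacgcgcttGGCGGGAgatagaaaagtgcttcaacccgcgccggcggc
E2F4, chr16:67192035-67192154, plus strand: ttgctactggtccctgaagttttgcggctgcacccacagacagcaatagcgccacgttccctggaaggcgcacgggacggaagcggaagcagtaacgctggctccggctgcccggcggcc

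The words searched on both strands were the E2F consensus TTTGGCGC, TTTGCCGC, TTTCGCGC and TTTCCCGC, and the shorter E2F cores GGCGGGA and CGCGGGA. They were chosen with these sequences in view, and a core can overlap a consensus word, as it does in *E2F3*. A consensus word was in the windows of *E2F1* (2 matches), *E2F2*, *E2F3* and *TFDP1*, and in 3.31% of the 35116 promoter windows of all genes. A core word was in those 4 genes and *MYBL2*, against 20.8% of all windows. None of these words was in the windows of *E2F4*, *E2F6* and *E2F7*. The CHR element, bound by MuvB and searched as TTTGAA and TTCGAA, was found only at the first start of *E2F3* among the member windows, and in 16.4% of all. These matches are descriptions of the letters and not binding sites.

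Of the 10 genes, 7 were lower without serum, 0 were higher and 3 did not pass the test of edgeR (quasi-likelihood, Benjamini-Hochberg adjusted p under 0.05). This main test had no block for the line, and 25.1% of all tested genes were called in it, 14.0% lower and 11.1% higher. That balance turned with upper-quartile scaling, with 1843 genes lower and 2508 higher against 2477 and 1957 as tested here, and 6 members were then lower and 0 higher. At an unadjusted p under 0.05, and with DESeq2 or limma's voom, 0 members were higher as well. The 7 were *E2F1*, *E2F3*, *E2F4*, *E2F7*, *E2F8*, *TFDP1* and *MYBL2*. The same 7 genes had all 4 serum-free libraries below all 4 serum libraries, which held for 15.0% of tested genes (12.6% had them all above). With *E2F6* added, 8 members were lower in every line, against 26.6% of tested genes, and 0 were higher in every line, against 28.8%. The median log2 fold change of the 10 genes was -0.46, beside 0.03 over all tested genes. In bulk RNA, fewer cells in a cycle phase and less RNA per cell cannot be told apart.

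**Figure D1:**
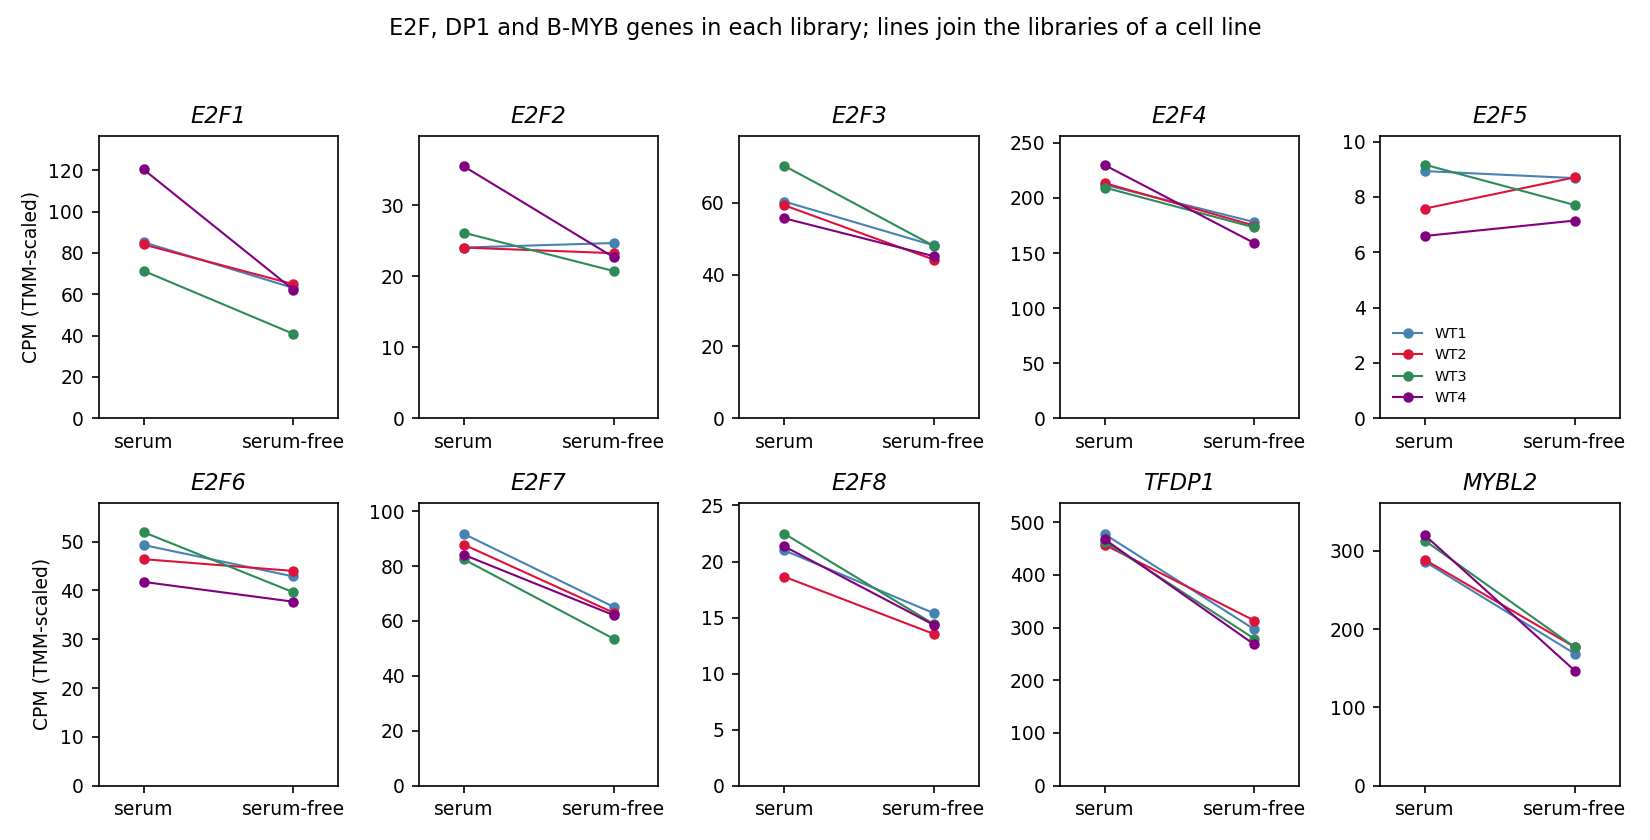
CPM of each member (vertical axis, from 0, TMM-scaled) in the serum and serum-free library of each line, joined by a line coloured by WT1 to WT4. *MYBL2* and *TFDP1* drop in every line, the serum library of WT4 stands high for *E2F1* at 120 CPM and *E2F2* at 35.5 CPM, and the lines of *E2F5* cross.

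Among the activators, *E2F1* (ENSG00000101412, chromosome 20, 33675477 to 33686385 of GRCh38), an E2F that can drive both S phase entry and apoptosis, was at 85.2, 84.1, 71.3 and 120 CPM with serum in WT1 to WT4 and at 63.1, 64.9, 40.9 and 62.3 CPM without. WT4 was highest with serum and WT3 lowest in both conditions, and the groups did not overlap. *E2F1* fell by 0.64 ± 0.19 on the log2 scale (SE, edgeR adjusted p = 0.0385), from a mean of 90.3 ± 21.1 CPM to 57.8 ± 11.3 CPM (SD, n = 4). In fits without a line block this call depended on single libraries. It was lost when the serum or serum-free library of WT1, WT2 or WT4, or the serum-free library of WT3, was left out, and without the whole of line WT1, WT2 or WT4, and edgeR's adjusted p ran from 0.0350 to 0.127 over the 12 fits of this kind. Blocking on the line gave an adjusted p of 4.29e-05 with edgeR, and with the block the call held whichever line was left out.

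*E2F2* (ENSG00000007968, chromosome 1, 23505212 to 23531233), an activator whose roles overlap those of *E2F1*, was at 24.1, 24.1, 26.1 and 35.5 CPM with serum and at 24.7, 23.3, 20.8 and 22.7 CPM without. The groups overlapped, since the serum libraries of WT1 and WT2 lay below the serum-free library of WT1. Its log2 fold change of -0.26 ± 0.13 (SE) did not pass (edgeR adjusted p = 0.169), nor did it with the line block (edgeR adjusted p = 0.0533). The 95% interval of the first ran from -0.55 to 0.03.

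*E2F3* (ENSG00000112242, chromosome 6, 20401879 to 20493714) codes for a full-length activator and a shorter form from a second start, which counts per gene do not separate. With serum it was at 60.3, 59.3, 70.2 and 55.7 CPM and without serum at 48.1, 44.1, 48.0 and 45.1 CPM. All serum libraries were above all serum-free ones, WT3 being the highest with serum. *E2F3* fell by 0.41 ± 0.08 on the log2 scale (SE, edgeR adjusted p = 0.00682).

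Among the pocket protein partners, *E2F4* (ENSG00000205250, chromosome 16, 67192155 to 67198918), the main E2F of quiescent cells, was at 212, 214, 209 and 230 CPM with serum and at 178, 175, 173 and 159 CPM without. The groups were far apart relative to their spread, and WT4 was both the highest with serum and the lowest without. The log2 fold change of *E2F4* was -0.34 ± 0.06 (SE, edgeR adjusted p = 0.00536). *E2F5* (ENSG00000133740, chromosome 8, 85177154 to 85214518), its closest relative, was at 8.93, 7.58, 9.16 and 6.59 CPM with serum and at 8.68, 8.70, 7.71 and 7.14 CPM without. The groups of *E2F5* overlapped throughout, with 2 lines lower and 2 higher without serum. Its log2 fold change of -0.00 ± 0.14 (SE) did not pass (edgeR adjusted p = 0.994), with a 95% interval from -0.31 to 0.31. Other annotated genes, mainly *RBIS* on the opposite strand, share 18.8% of the exon bases of *E2F5*, against 0.169% for *E2F8* and 0 for the other 8 members, and the strand setting of the counts is not given.

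*E2F6* (ENSG00000169016, chromosome 2, 11444375 to 11466161), a repressor that works in a Polycomb complex, was at 49.3, 46.4, 51.9 and 41.7 CPM with serum and at 42.9, 44.0, 39.6 and 37.7 CPM without. It was lower in each line, but the serum library of WT4 lay below the serum-free libraries of WT1 and WT2. The log2 fold change of -0.21 ± 0.09 (SE) did not pass in the comparison that ignores lines (edgeR adjusted p = 0.106), and passed with the line block (-0.20 ± 0.07, edgeR adjusted p = 0.0211). It also passed without the block when the serum library of WT4 was left out (-0.26, edgeR adjusted p = 0.0236) or the whole of WT4 (-0.22, edgeR adjusted p = 0.0395), but in none of the other 10 fits of this kind, each lacking a library or line. With the block it no longer passed without WT1 (-0.20, edgeR adjusted p = 0.0778) or WT3 (-0.15, edgeR adjusted p = 0.117).

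The atypical repressors fell together. *E2F7* (ENSG00000165891, chromosome 12, 77021251 to 77065569), a repressor of *E2F1* and other G1/S genes once S phase is under way, was at 91.7, 87.8, 82.4 and 84.1 CPM with serum and at 65.2, 63.0, 53.6 and 62.2 CPM without. *E2F8* (ENSG00000129173, chromosome 11, 19224063 to 19241655), with which E2F7 forms dimers, was at 21.0, 18.6, 22.5 and 21.3 CPM with serum and at 15.4, 13.5, 14.4 and 14.3 CPM without. Neither gene had overlapping groups, and in both the largest drop without correction for GC content was in WT3. The log2 fold changes were -0.50 ± 0.08 for *E2F7* (SE, edgeR adjusted p = 0.00235) and -0.53 ± 0.09 for *E2F8* (SE, edgeR adjusted p = 0.00348).

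Without correction for GC content, the largest changes over the 4 lines were in the 2 members that are not E2Fs. The margin of *TFDP1* over *E2F1* (-0.64 ± 0.19, SE) was small. *E2F1* fell further than *TFDP1* in WT3 (-0.80 against -0.73) and WT4 (-0.95 against -0.80), and less far in WT1 and WT2. *TFDP1* (ENSG00000198176, chromosome 13, 113584688 to 113641473), the DP partner of the typical E2Fs, was at 477, 457, 463 and 467 CPM with serum and at 297, 313, 279 and 268 CPM without. *MYBL2* (ENSG00000101057, chromosome 20, 43667114 to 43716482) was at 286, 288, 313 and 320 CPM with serum and at 169, 177, 177 and 147 CPM without. In both genes the serum libraries were close to each other and well above the serum-free ones, among which WT4 was lowest. *TFDP1* fell to 62.0% of its serum level, by 0.69 ± 0.06 on the log2 scale (SE, edgeR adjusted p = 0.000828), and *MYBL2* to 55.5%, by 0.85 ± 0.08 (SE, edgeR adjusted p = 0.000828). The change of *MYBL2* lay at percentile 1.38 and that of *TFDP1* at percentile 2.68 of the changes of all tested genes, counted from the most lowered.

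**Figure D2:**
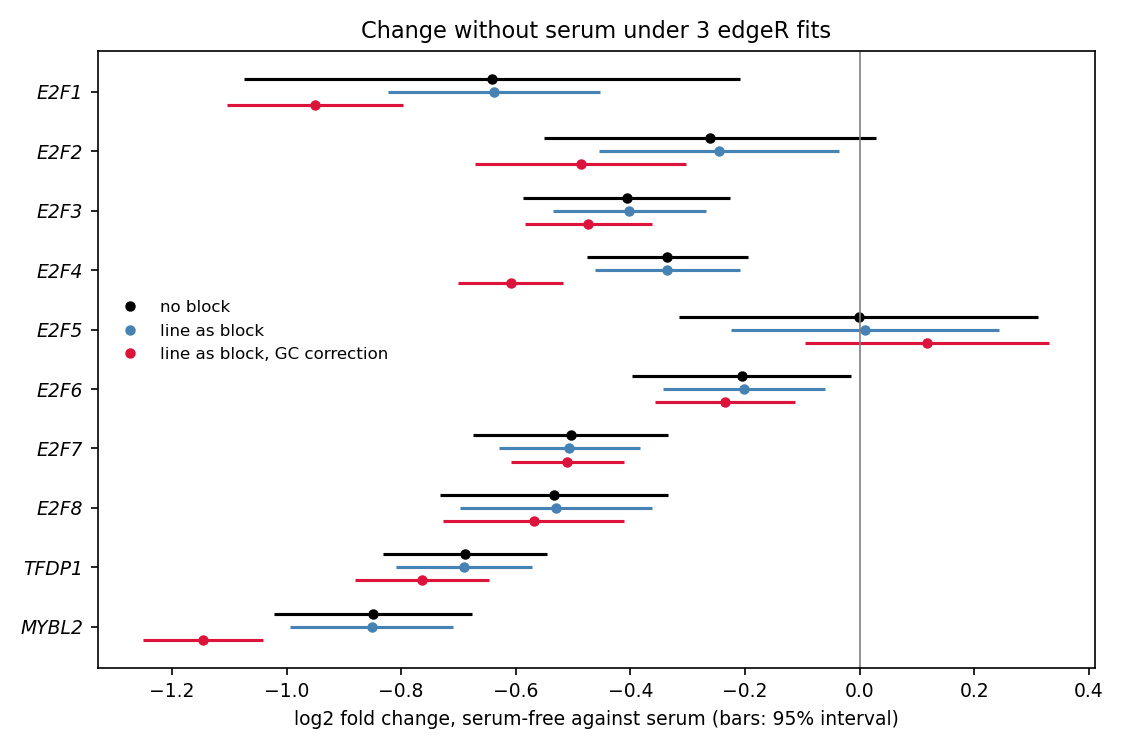
Log2 fold change of each member (horizontal axis, serum-free against serum) with its 95% interval from 3 edgeR fits, without block, with line as block, and with line as block after correction for GC content. Without the block the points run from -0.85 for *MYBL2* to -0.00 for *E2F5*, and correction for GC moves *E2F1*, *E2F2*, *E2F4* and *MYBL2* further down.

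With the line as block 8 members were lower and 0 higher, where 45.7% of tested genes were called, 22.4% lower and 23.2% higher. Across genes, the change without serum followed GC content in WT1, WT2 and WT3 (Spearman's rho 0.40, 0.36 and 0.39 over 17425 genes, which are not independent replicates) and hardly in WT4 (0.07). The members richest in GC, *E2F1* (61.6% GC), *MYBL2* (60.5%), *E2F4* (59.3%) and *E2F2* (57.4%), are above the median of 47.9% of tested genes. These 4 genes and *TFDP1* had their largest drop in WT4 before any correction for GC content. After correction of each library for GC content, with the block, 9 members were lower, all but *E2F5*, and 0 higher, where 46.9% of tested genes were called, 30.5% lower and 16.4% higher.

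*E2F2* was then called, at -0.49 ± 0.09 on the log2 scale (SE, edgeR adjusted p = 0.000333). *E2F1* moved to -0.95, *E2F4* to -0.61 and *MYBL2* to -1.15, while *E2F7* stayed at -0.51. The corrected drops of *MYBL2* were 1.13, 1.01, 1.15 and 1.28 in WT1 to WT4, closer to each other than the uncorrected ones of 0.76, 0.70, 0.82 and 1.12. For *E2F2* they were 0.25, 0.30, 0.61 and 0.80, WT4 remaining the largest. For *E2F1* they were 0.84, 0.71, 1.15 and 1.12, so that WT3 was then the largest, and for *E2F8* 0.44, 0.48, 0.65 and 0.71, with WT4 in place of WT3. Whether the relation with GC content arose in the libraries or in the cells was not tested.

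Between lines only *E2F1* passed an edgeR F test over the 4 lines with condition in the model (adjusted p = 0.00641), 1 of 10 members where 22.9% of all tested genes were called. Its mean level over both conditions was 0.68 higher in WT4 than in WT3 on the log2 scale. Without WT3 no member was called, where 2822 of 18050 tested genes were, and *E2F1* had an edgeR adjusted p of 0.316. Without WT4, *E2F7* was called besides *E2F1*, where 3296 of 17756 tested genes were called. Averaged over both conditions, *E2F4* was the most even, with 1.02-fold between its highest and lowest line, followed by *TFDP1* (1.07-fold) and *MYBL2* (1.09-fold). That average hides opposite deviations of *E2F4* in WT4. Against the mean of WT1 to WT3 on the log2 scale, WT4 was at 0.12 with serum and at -0.14 without. *E2F5*, at the lowest counts, spread 1.28-fold between lines (edgeR adjusted p = 0.330). Each line adds only 2 libraries to this test.

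Levels of different members were compared per gene length as RPKM (CPM per kilobase of merged exons). *TFDP1* was highest with serum at 124 ± 2.26 RPKM, followed by *MYBL2* at 109 ± 6.13, *E2F4* at 60.1 ± 2.57 and *E2F1* at 33.6 ± 7.84 RPKM (SD, n = 4). *E2F7* (13.8 ± 0.66 RPKM), *E2F3* (11.8 ± 1.20) and *E2F6* (11.6 ± 1.07) formed a middle group in which neighbours overlapped between libraries. *E2F8* (5.05 ± 0.39 RPKM) and *E2F2* (5.02 ± 1.0) overlapped too, and *E2F5* was lowest at 1.35 ± 0.20 RPKM, under the median of 2.75 RPKM of tested genes.

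Without serum the order was *TFDP1* at 77.2 ± 5.33, *MYBL2* at 60.3 ± 5.09, *E2F4* at 47.6 ± 2.34, *E2F1* at 21.5 ± 4.21, *E2F6* at 10.1 ± 0.71, *E2F7* at 9.69 ± 0.81, *E2F3* at 8.92 ± 0.39, *E2F2* at 4.19 ± 0.30, *E2F8* at 3.49 ± 0.18 and *E2F5* at 1.34 ± 0.13 RPKM (SD, n = 4). Here the neighbours *E2F6* and *E2F7*, and *E2F7* and *E2F3*, overlapped between libraries. *MYBL2* had been 1.81-fold above *E2F4* with serum and was 1.27-fold above it without. With the longest transcript's length in place of merged exons, *E2F4* stood above *MYBL2* without serum, at 65.5 against 61.9 RPKM.

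**Figure D3:**
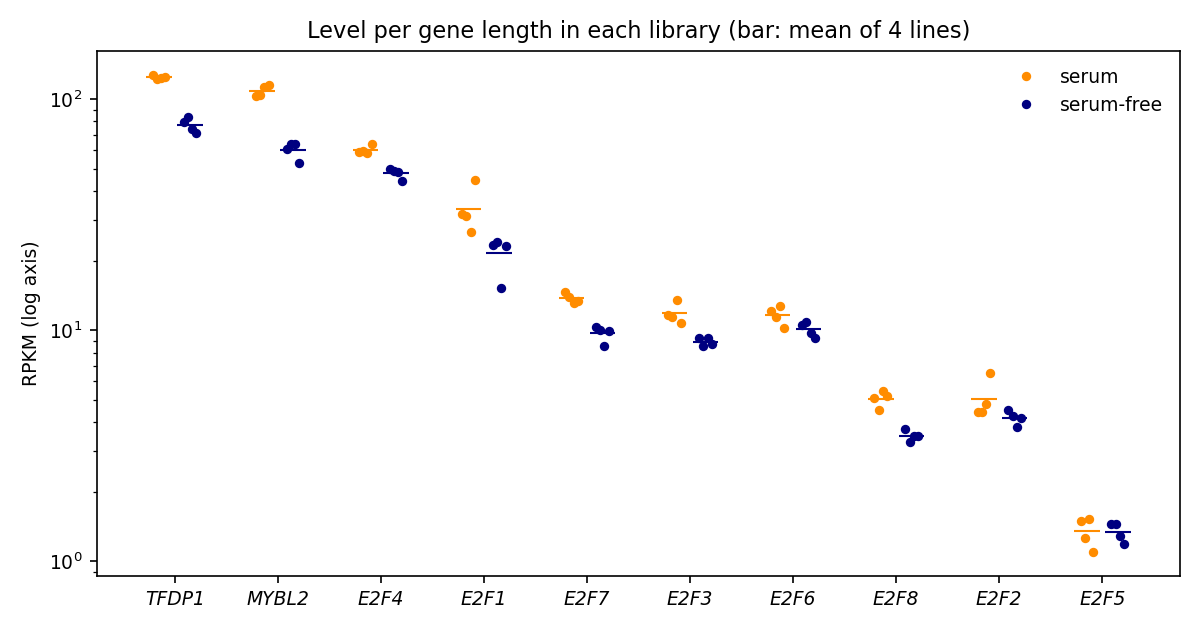
RPKM (log axis) of each member in the 4 serum and 4 serum-free libraries, in order of the serum mean, with bars at the means. The levels span from 124 RPKM for *TFDP1* to 1.35 RPKM for *E2F5* with serum, and *E2F3* overlaps both *E2F7* and *E2F6*.

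The design allows activators to be set against repressors within each line. Serum-free minus serum, the mean log2 CPM of the activators *E2F1*, *E2F2* and *E2F3* differed by -0.24, -0.28, -0.56 and -0.63 in WT1 to WT4, and that of the repressors *E2F4* to *E2F8* by -0.29, -0.22, -0.43 and -0.31. Their difference, activators minus repressors, was 0.05, -0.06, -0.13 and -0.32, or -0.12 ± 0.15 on the log2 scale (SD, n = 4 lines), smaller than its spread between lines and given as a description, with no test. WT1 went against the other lines, and WT4 had the widest gap.

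The repressors were not alike. The mean of *E2F7* and *E2F8* was at -0.52 ± 0.08, further down than the activators in WT1, WT2 and WT3, and that of *E2F4* and *E2F5* at -0.16 ± 0.09, beside *E2F6* at -0.20 ± 0.13, which passed with the line block and not without it (SD, n = 4). The value of *E2F4* and *E2F5* averages a gene that fell with one at -0.00, and their summed RPKM, nearly all of it *E2F4*, gave -0.33 ± 0.13. Activators minus the mean of *E2F4* and *E2F5* was -0.09, -0.24, -0.30 and -0.43 in WT1 to WT4. After the correction for GC content the difference between activators and all repressors was -0.18, -0.23, -0.34 and -0.36, of the same sign in all 4 lines. The order of classes then turned, with the activators at -0.48, -0.49, -0.79 and -0.79 in WT1 to WT4 and *E2F7* and *E2F8* at -0.44, -0.47, -0.62 and -0.63, so that the activators were further down in each line.

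**Figure D4:**
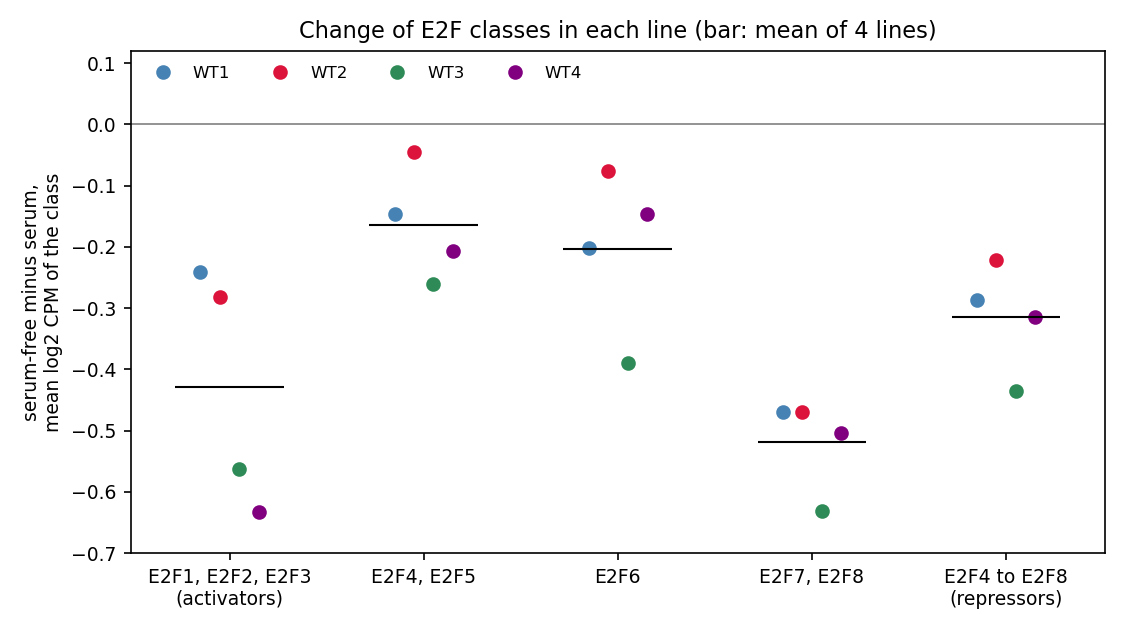
Serum-free minus serum change of the mean log2 CPM of each E2F class (vertical axis), a point per line and a bar at the mean of the 4 lines. Without correction for GC content, as plotted, *E2F7* and *E2F8* lie lowest on average at -0.52 (after it the activators do, at -0.64 against -0.54), and the activators lie lower in WT3 and WT4 (-0.56 and -0.63) than in WT1 and WT2 (-0.24 and -0.28).

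In summed RPKM the activators went from 50.4 ± 7.83 to 34.6 ± 4.27 and the repressors from 91.9 ± 1.46 to 72.3 ± 3.36 (SD, n = 4). Activators made up 35.3% ± 3.06 of all E2F RPKM with serum and 32.3% ± 2.70 without, ranges that overlapped. The share was lower without serum in each line, from 34.1% to 33.0% in WT1, from 34.2% to 33.2% in WT2, from 33.0% to 28.4% in WT3 and from 39.8% to 34.6% in WT4. *E2F4* alone held 42.3% ± 0.95 with serum and 44.7% ± 2.60 without. *TFDP1* RPKM divided by that of all 8 E2Fs was 0.877 ± 0.052 with serum and 0.723 ± 0.033 without, with no overlap between the groups. These shares are without correction for GC content. When the corrected change of each line was applied to its serum levels, the ratio of *TFDP1* was 0.790 ± 0.071 without serum and overlapped the serum group, *E2F4* held 42.3% ± 1.93 and the activators 31.5% ± 2.70 (SD, n = 4).

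The genes around the E2Fs were taken from lists of known partners and targets. Their counts are to be read beside the shares of all tested genes called lower, 14.0% without block, 22.4% with the block and 30.5% with block and GC correction, and the 11.1% called higher without block. Among the 8 pocket protein and MuvB core genes, 5 fell and 1 rose. *RB1*, which restrains the activators, fell by 0.40 on the log2 scale (edgeR adjusted p = 0.00478), *RBL1* (p107) by 0.37 (edgeR adjusted p = 0.0141), and the MuvB genes *RBBP4*, *LIN9* and *LIN54* by 0.51, 0.35 and 0.22 (edgeR adjusted p = 0.00890, 0.0231 and 0.0486). *RBL2*, whose product p130 binds E2F4 in quiescent cells, rose from 45.0 ± 0.83 to 59.4 ± 3.71 CPM (SD, n = 4), by 0.40 on the log2 scale (edgeR adjusted p = 0.00301). *LIN52* was at -0.05 and *LIN37*, at 1.02 CPM with serum, at 0.37, and neither passed. With block and GC correction *LIN54* no longer passed (-0.13, edgeR adjusted p = 0.0583).

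*TFDP2*, the other widely expressed DP gene, went the opposite way to *TFDP1*. It rose from 43.4 ± 2.51 to 60.2 ± 2.89 CPM (SD, n = 4), by 0.47 on the log2 scale (edgeR adjusted p = 0.00208). *FOXM1*, a mitotic activator that acts after B-MYB, fell by 0.37 (edgeR adjusted p = 0.0102), or 0.58 with block and GC correction. *MYBL1* (A-MYB) was at -0.76 and passed only with the line block (edgeR adjusted p = 0.0632 without and 1.50e-05 with it). *MYB*, at 1.35 CPM with serum, was at 0.48 and did not pass, and *TFDP3* had too few counts to be tested.

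Of the 39 E2F target genes of G1/S, 36 fell, 0 rose and 3 did not pass, with a median log2 fold change of -0.48, and 0 were higher at an unadjusted p under 0.05 with edgeR. *RRM2*, a subunit of ribonucleotide reductase, fell from 707 ± 66.1 to 365 ± 37.7 CPM (SD, n = 4), by 0.96 on the log2 scale (edgeR adjusted p = 0.000828). *GINS2*, part of the replicative helicase, fell by 0.77 (edgeR adjusted p = 0.00109). The 3 that did not pass, named after their values were seen, were the licensing factor *CDT1* at -0.12, cyclin E1 (*CCNE1*) at -0.14 and the repair gene *UNG* at -0.30. With the line block *UNG* passed, and with block and GC correction all 39 were lower, *CDT1* at -0.47, *CCNE1* at -0.28 and *UNG* at -0.42 (edgeR adjusted p = 6.70e-06, 0.0119 and 0.00113).

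Of the 33 G2/M target genes of B-MYB, MuvB and FOXM1, 23 fell, 0 rose and 10 did not pass, with a median of -0.37. *CDK1*, the mitotic kinase, fell by 0.81 (edgeR adjusted p = 0.000996) and cyclin A2 (*CCNA2*) by 0.62 (edgeR adjusted p = 0.000992). The phosphatase gene *CDC25C*, named after its value was seen, was the 1 gene higher at an unadjusted p under 0.05. With the line block 30 genes fell and *CDC25C* rose, by 0.35 (edgeR adjusted p = 0.00320).

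Among 16 cyclins, kinases and inhibitors of G1 and S, 14 were tested, 5 fell and 1 rose, while 8 fell with the line block and 11 with block and GC correction. The 3 gained with the block, named after their values were seen, were cyclin D1 (*CCND1*) at -0.59, its kinase gene *CDK6* at -0.42 and the inhibitor gene *CDKN1A* (p21) at -0.17 (edgeR adjusted p = 5.06e-06, 4.32e-05 and 0.0380). With GC correction *CDKN1A* was at -0.43, and the inhibitor genes *CDKN2C* and *CDKN2D*, likewise named after their values were seen, were lower too, at -0.27 and -0.44 (edgeR adjusted p = 0.00136 and 0.000154). *CDK2*, which with its cyclins helps to release E2F from RB, fell most, from 93.2 ± 6.28 to 43.9 ± 2.76 CPM (SD, n = 4), by 1.08 on the log2 scale (edgeR adjusted p = 0.000288). The 1 that rose was *CDKN1C* (p57), named after its value was seen, by 0.74 (edgeR adjusted p = 0.0344), or 0.40 with block and GC correction. Of the 10 genes of the E2F6 complex PRC1.6, 4 fell and 0 rose (0 also at an unadjusted p), among them *WDR5* by 0.46 and the DNA-binding partner *MAX* by 0.27 (edgeR adjusted p = 0.00253 and 0.0296). With the line block 7 of these 10 were lower, and 8 with block and GC correction, where *MAX* was at -0.42. The gene gained by the correction was *RING1*, named after its values were seen, which turned from 0.09 without block to -0.21 (edgeR adjusted p = 0.0122).

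**Figure D5:**
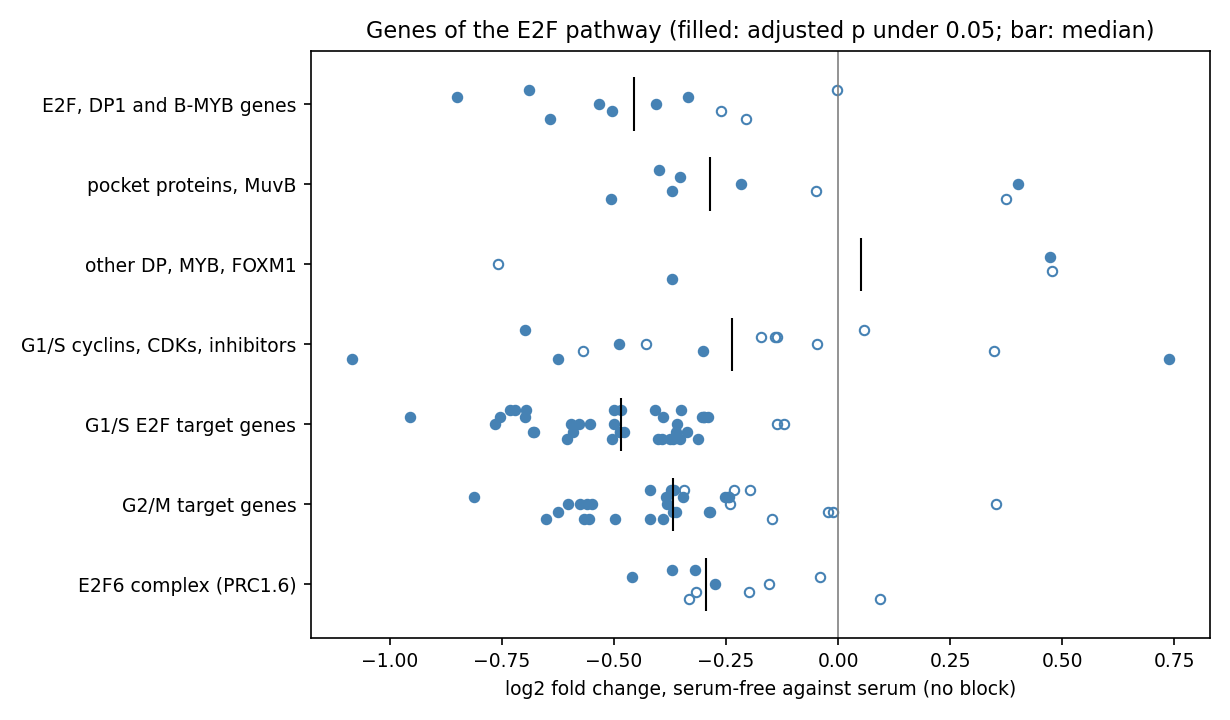
Log2 fold change (horizontal axis, no block) of every tested gene in the 10 members and the lists of partners and targets, filled where edgeR's adjusted p is under 0.05, with a bar at each median. The G1/S targets have their median at -0.48, near -0.46 for the members, and *RBL2* and *TFDP2* stand to the right of 0.

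Genes with the pattern most like each member were found by the root mean square difference of centred log2 CPM over the 8 libraries, among 11522 protein-coding genes. *MYBL2* was nearest to *GINS2* (0.09 on the log2 scale) and *RANBP1* (0.09), and *E2F8* to *CENPM* (0.06) and *NCAPG* (0.06). *TFDP1* was nearest to *LRRC59* and *SRSF6* (0.05 each), *E2F7* to *G3BP1* and *EED* (0.06 each), and *E2F3* to *OGFOD1* (0.04) and *SPRTN* (0.05). *E2F1* was nearest to *FAM107B* (0.12) and *TCF19* (0.14). *E2F2* was nearest to *SNRPB* and *ADRM1* (0.07 each), *E2F4* to *SF3B4* and *TTC1* (0.03 each), *E2F5* to *C2CD5* and *TENT2* (0.06 each) and *E2F6* to *ACTR2* and *PSMD10* (0.03 each). Over the 11522 genes the median difference ranged from 0.22 for *E2F6* to 0.45 for *MYBL2*.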

How the data were processed

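The deposited files hold whole-number, unnormalized read counts of each gene, 1 library per line and condition, which the authors made, per the labels, with cutadapt, TopHat2 2.0.11 and HTSeq on GRCh38. The methods of the study instead name Tophat on an earlier genome build, and Cufflinks for expression. The annotation release and strand setting are not given in the sources used here. Line and condition come from the labels, and the counts labelled WT4 carry another name. The members and lists were chosen with earlier results of these data known. After filterByExpr and TMM scaling, edgeR 4.0.16 (R 4.3.3) was run on all 17671 remaining genes, by robust glmQLFit and glmQLFTest, with Benjamini-Hochberg adjustment and a threshold of 0.05. The libraries held 29759279 to 73341551 counts on genes. CPM and RPKM used TMM-scaled library sizes, and log2 CPM a prior count of 2. Gene lengths and GC content came from GENCODE lifted to GRCh37, and were known for 17425 genes. GC content was corrected within each library by a spline with 5 degrees of freedom. The labels give the same lines in both conditions, and deviations from the condition means correlated by 0.40, 0.59, 0.46 and 0.60 within WT1 to WT4 and by at most 0.13 between different lines. The main fit nevertheless had no block and so ignored this pairing. The line served as the replicate block in alternative fits. Named were the 10 members, from each list the 2 called genes of smallest p, all genes of lists of up to 8, and the 2 protein-coding genes nearest in pattern to each member (at least 100 counts on average). Genes outside this rule are marked as chosen after their values were seen. The alternatives were the block with and without GC correction, DESeq2 1.42.0, limma 3.58.1 (voom), RLE and upper-quartile scaling, other filters, other lengths, TPM, and leaving out each library and line. In simulated data 97 genes changed by 0.5 and 97 by 1 on the log2 scale among 17367, far fewer than were called here, and 199 differed between lines. There the fit with the block and the test between lines made more false calls than the nominal rate, and the fit without the block missed changes of 0.5. These rates need not hold for the real data, where *E2F4* was called at -0.34 without the block.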

Additional observations from a re-analysis of the deposited data

Results flagged for a closer look

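In groups of 4 values, a highest or lowest value was singled out where its gap to the nearest other was a large part of the whole range (Dixon's ratio at 95%), which chance does in about 1 of 20 groups. Of 49 groups searched 4 had such a value, with 2.45 expected by chance, and they share genes. *E2F1* was at 40.9 CPM in the serum-free library of WT3, the next being 62.3 CPM in WT4. The change of *E2F4* without serum was -0.53 on the log2 scale in WT4 and next -0.29 in WT2, and the change of the summed RPKM of *E2F4* and *E2F5*, of which *E2F4* makes up nearly all, was -0.52 in WT4 and next -0.28. For the summed RPKM of *E2F7* and *E2F8* the change was -0.63 in WT3 and next -0.48 in WT1. These values are without correction for GC content, after which the mean change of *E2F7* and *E2F8* was -0.62 in WT3 and -0.63 in WT4, and that of *E2F4* -0.69 in WT4 and next -0.59 in WT1.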

How the results depend on the processing

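The directions and calls of *E2F3*, *E2F4*, *E2F7*, *E2F8*, *TFDP1* and *MYBL2* held under all 12 alternatives of settings and all 12 fits that left out a library or line. The calls of *E2F1*, *E2F2* and *E2F6* did not all hold, while their direction did, and *E2F5* changed direction. *E2F1* missed the threshold with upper-quartile scaling (-0.58, edgeR adjusted p = 0.0590) and with no filter on low counts (-0.65, edgeR adjusted p = 0.113, over 34455 genes). With the block it kept the call whichever line was left out. Without the block it ranged from -0.74 to -0.47 with a library or line left out, where 10 of 12 fits lost the call. *E2F2* ranged from -0.36 to -0.11 there, and passed with the replicate block and GC correction (-0.49) and with the block without WT1 (-0.34) or WT2 (-0.32). *E2F6* ranged from -0.26 to -0.15, and passed with the block (-0.20), with block and GC correction (-0.24), and with the block without WT2 (-0.25) or WT4 (-0.22). *E2F5*, near 0, changed sign with the block (0.0090), block and GC correction (0.12), voom (0.0040), upper-quartile scaling (0.064), at least 10 counts in every library (0.013) and the block without WT1 (0.025) or WT3 (0.082), and ranged from -0.087 to 0.075 with a library or line left out.

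The members lower numbered 6 to 9 in every alternative. Over all genes, the block gave 3961 lower and 4106 higher and, with GC correction, 5390 lower. The block without WT1, WT2, WT3 and WT4 gave 3107, 3200, 2979 and 4479 higher, and 4459 lower without WT4. Without block, leaving out a library or line gave 969 to 3279 lower and 620 to 2849 higher, the fewest without WT1. Members called between lines ranged from 0 to 2. There were 0 without WT3, where 2822 of 18050 tested genes were called. There were 2 after GC correction (*E2F1*, and *MYBL2* at edgeR adjusted p = 0.0424), where 22.4% of tested genes were called. Activators minus repressors ranged from -0.17 to -0.05 with a line left out, and was 0.089 against *E2F7* and *E2F8* and -0.28 after GC correction. With a line left out, the order by RPKM kept 6 to 10 members in place with serum and 10 without, and with the longest transcript's length 8 in each condition. The cause of these shifts was not tested. The pairing by replicate block (without GC correction, all lines) changed the call of no member other than *E2F6*.

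*E2F5* had 187 to 665 counts per library, the lowest of the members in each library.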
